A study of Mus musculus with 18 samples.

Results

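Interferon response and innate sensing genes are described here across the knockdown of the RNA-binding proteins PCBP1 and PCBP2 in mouse fetal liver progenitors. The set is a fixed list of 39 genes out of the 46167 genes counted, matched by GENCODE M21 symbol. It holds sensors of foreign RNA, their adaptor, transcription factors, antiviral effectors and antigen-processing genes. The label was checked against the counts: 37 of the 39 passed the filter on low counts in all 18 libraries together, 36 in the 9 Day 0 libraries and 37 in the 9 Day 2 libraries. Ifi44 and Zbp1 stayed under it in all 3 fits, with at most 10 and 11 estimated reads in any library, and Ifit3 stayed under it at Day 0.

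Progenitors were enriched from E14.5 fetal livers of CD-1 mice and transduced with MSCV-PIG retroviruses that carry a short hairpin RNA (shRNA), puromycin resistance and GFP. PCBP2 knockdown, PCBP1 knockdown and control were each sampled at Day 2 and at Day 0, which makes 6 groups of 3 libraries. The 3 libraries of a knockdown are different hairpins (1, 3 and 4), and the 3 controls are the scrambled hairpins SCR-1 and SCR-2 and the luciferase hairpin LUC-1. Day 0 cells were harvested from an expansion medium with dexamethasone, erythropoietin and stem cell factor, and Day 2 cells after 2 further days in a serum-containing differentiation medium with more erythropoietin, for which dexamethasone and stem cell factor are not listed. Every library, controls included, carries a retrovirus and a hairpin. No library without them was analysed here, so a response to the hairpins or the virus themselves cannot be told apart from the baseline. The 3 hairpins of a knockdown need separate transductions, so the spread of those libraries includes differences between hairpins. The labels do not say whether the libraries of a group came from separate embryos or cell preparations. The p-values then measure only how far these samples spread, part of which may be technical.

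Interferons are secreted proteins that bind cell-surface receptors and, through JAK kinases and STAT proteins, switch on interferon-stimulated genes. RIG-I and MDA5 detect double-stranded RNA in the cytosol and signal through MAVS, an adaptor on mitochondria, to IRF3 and IRF7, which drive interferon genes. PCBP1 and PCBP2 bind C-rich stretches of RNA and affect how transcripts are spliced, kept and translated, and both are known to bind MAVS protein and promote its degradation, a step that RNA levels do not show.

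Estimated reads per library ranged from 27033440 to 54096339. In the PCBP1 knockdown, Pcbp1 was left at 5.83%, 21.3% and 15.0% of the control mean with hairpins 1, 3 and 4 at Day 2, and at 7.21%, 30.3% and 12.4% at Day 0. In the PCBP2 knockdown, Pcbp2 was left at 16.9%, 15.9% and 20.5% at Day 2, and at 24.6%, 24.4% and 25.5% at Day 0. The 10 erythroid marker genes all rose between the days in each condition, where 40.3% to 41% of all genes rose. The control libraries' summed level of these markers was 519000 to 700000 CPM at Day 2 and 3950 to 4610 CPM at Day 0. CPM are read counts normalised to a library size that is scaled by the trimmed mean of M values (TMM). The TMM factors were 0.503 to 0.646 at Day 2 and 1.65 to 1.74 at Day 0, so that CPM and fold changes between the days are relative to the bulk of genes and not to the library total. These are bulk RNA samples, in which fewer cells of a type and less RNA per cell cannot be told apart.

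In control cells at Day 2, a group of antiviral effector genes stood far above their Day 0 levels, while several factors that sense RNA or relay interferon signals were lower. Of the 37 members tested, 23 rose and 10 fell in the controls (edgeR quasi-likelihood test on 18 libraries, Benjamini-Hochberg adjusted p under 0.05). Most genes of these cells changed over the same 2 days. Of all 17500 genes tested, 82.9% were called: 40.5% were higher at Day 2 and 42.4% were lower. The count of called members is therefore near the background, and its excess of higher over lower values was not tested. The members' median log2 fold change was 0.745, against -0.0481 over all genes. By size, 9 members were higher by over 4 log2 units, as were 8.86% of all genes. Time, medium and differentiation changed together and cannot be told apart.

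The scaling between the days matters for the smaller changes. With library totals in place of TMM, the median of all genes moved by -1.63 log2 units in the controls, and the members split into 14 higher and 20 lower. Of the 23 that rose with TMM, 6 were called lower with library totals (Irf1, Ifi35, Parp9, Dtx3l, Ifitm3 and Adar, by 0.50 to 1.25), and Usp18, Ddx58 and Ifit3 were not called. The same 14 members were called higher in every alternative tried: Isg15, Ifit1, Rsad2, Oasl2, Mx2, Isg20, Irf7, Oas3, Mx1, Oas2, Xaf1, Irf9, Mavs and Irf2. Of the 10 that fell, 8 were called lower in every alternative, all but Ifih1 and Ifit2.

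**Figure D1:**
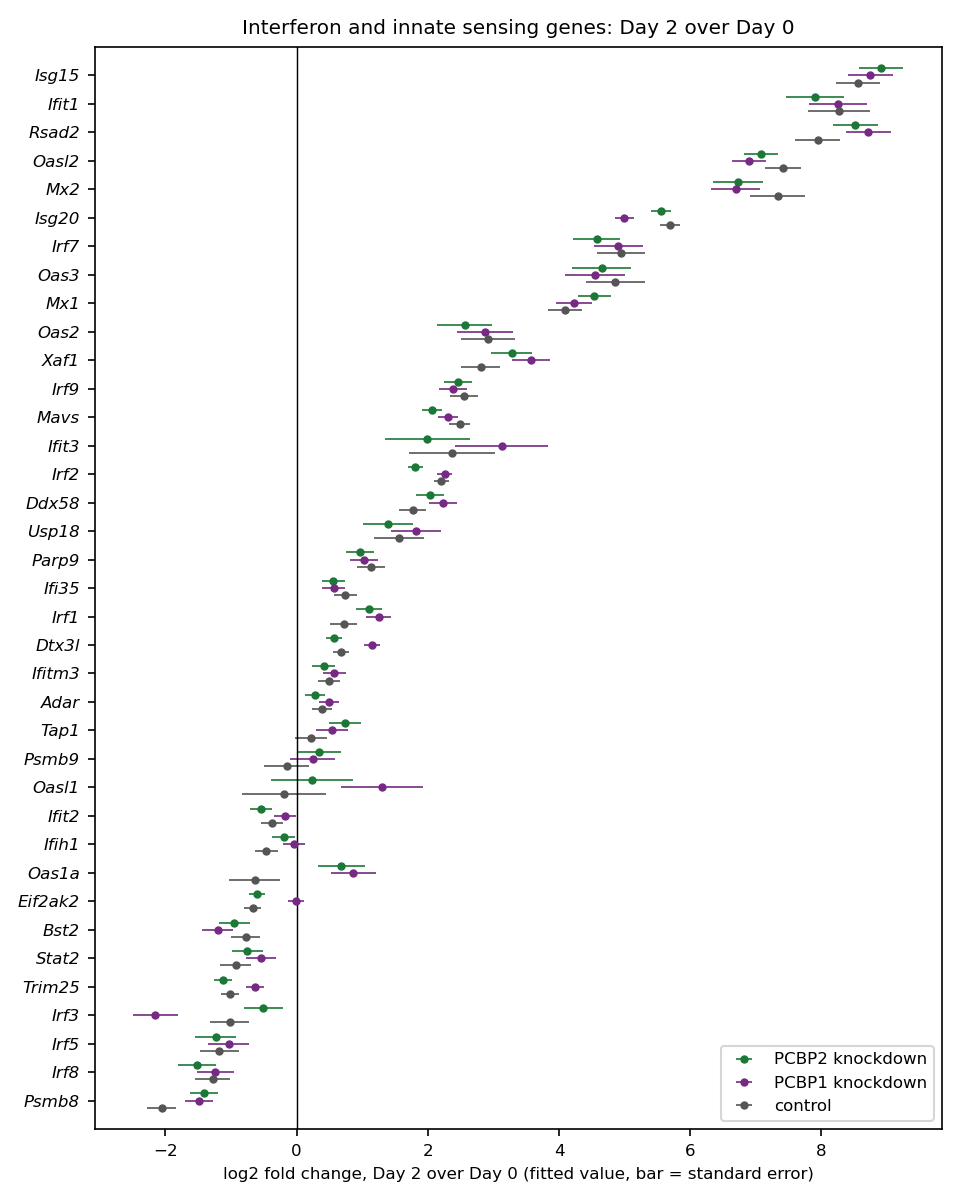
Fitted log2 fold change of the 37 tested members, Day 2 over Day 0, with points for each condition and bars for the standard error. Isg15, Ifit1 and Rsad2 lie at the top, at 7.91 to 8.91 log2 units over the 3 conditions, and Psmb8 at the bottom at -2.06 in the controls, and points near 0 change direction with the scaling.

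Isg15 (ENSMUSG00000035692, GRCm38 chromosome 4, 156199424 to 156200818, minus strand) codes for a ubiquitin-like protein that is attached to other proteins. Its level was 316.6, 489.0 and 367.2 CPM in control cells of Day 2, given in the order SCR-1, SCR-2, LUC-1 throughout, against 0.880, 1.30 and 0.901 CPM in the Day 0 controls. Every Day 2 library lay far above every Day 0 library. The log2 fold change was 8.56 (SE 0.33, edgeR adjusted p = 7.35e-16), and 6.92 with library totals.

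Rsad2 (ENSMUSG00000020641, chromosome 12, 26442746 to 26456452, minus strand) codes for viperin, a radical SAM enzyme that makes a chain-terminating nucleotide. It had 666, 737 and 579 CPM in the Day 2 controls, against 2.81, 3.30 and 1.91 CPM in the Day 0 controls. It rose by 7.94 log2 units (SE 0.34, edgeR adjusted p = 3.19e-15), and it held the most normalised reads of any member at Day 2. Ifit1 (ENSMUSG00000034459, chromosome 19, 34640871 to 34650009, plus strand), which codes for a protein that binds foreign RNA 5′ ends, had 26.8, 46.3 and 69.0 CPM in the Day 2 controls, against 0.0957, 0.198 and 0.150 CPM in the Day 0 controls. Its log2 fold change of 8.27 (SE 0.47, edgeR adjusted p = 4.58e-13) rests on few reads at Day 0, as few as 5 in a library.

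The next members by size were Oasl2, Mx2 and Isg20. Oasl2, a 2′-5′-oligoadenylate synthetase-like gene, had 127, 104 and 102 CPM in the Day 2 controls, against 0.574, 0.759 and 0.601 CPM in the Day 0 controls (log2 7.41, SE 0.27, edgeR adjusted p = 2.34e-16). Mx2, of the dynamin-like antiviral GTPase family, is annotated as a polymorphic pseudogene in GENCODE M21. It had 13.0, 21.4 and 13.7 CPM in the Day 2 controls, against 0.153, 0.0825 and 0.0563 CPM in the Day 0 controls (log2 7.33, SE 0.41). Isg20 (ENSMUSG00000039236, chromosome 7, 78913424 to 78920396, plus strand) codes for an exonuclease that degrades RNA. It had 403.5, 463.3 and 394.4 CPM in the Day 2 controls, against 8.79, 9.10 and 6.44 CPM in the Day 0 controls (log2 5.69, SE 0.15, edgeR adjusted p = 1.60e-18). Irf7 (4.94), Oas3 (4.86) and Mx1 (4.09) completed the 9 members over 4 log2 units. In the knockdowns these 9 had values of 4.54 to 8.91 with PCBP2 and 4.23 to 8.75 with PCBP1.

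**Figure D2:**
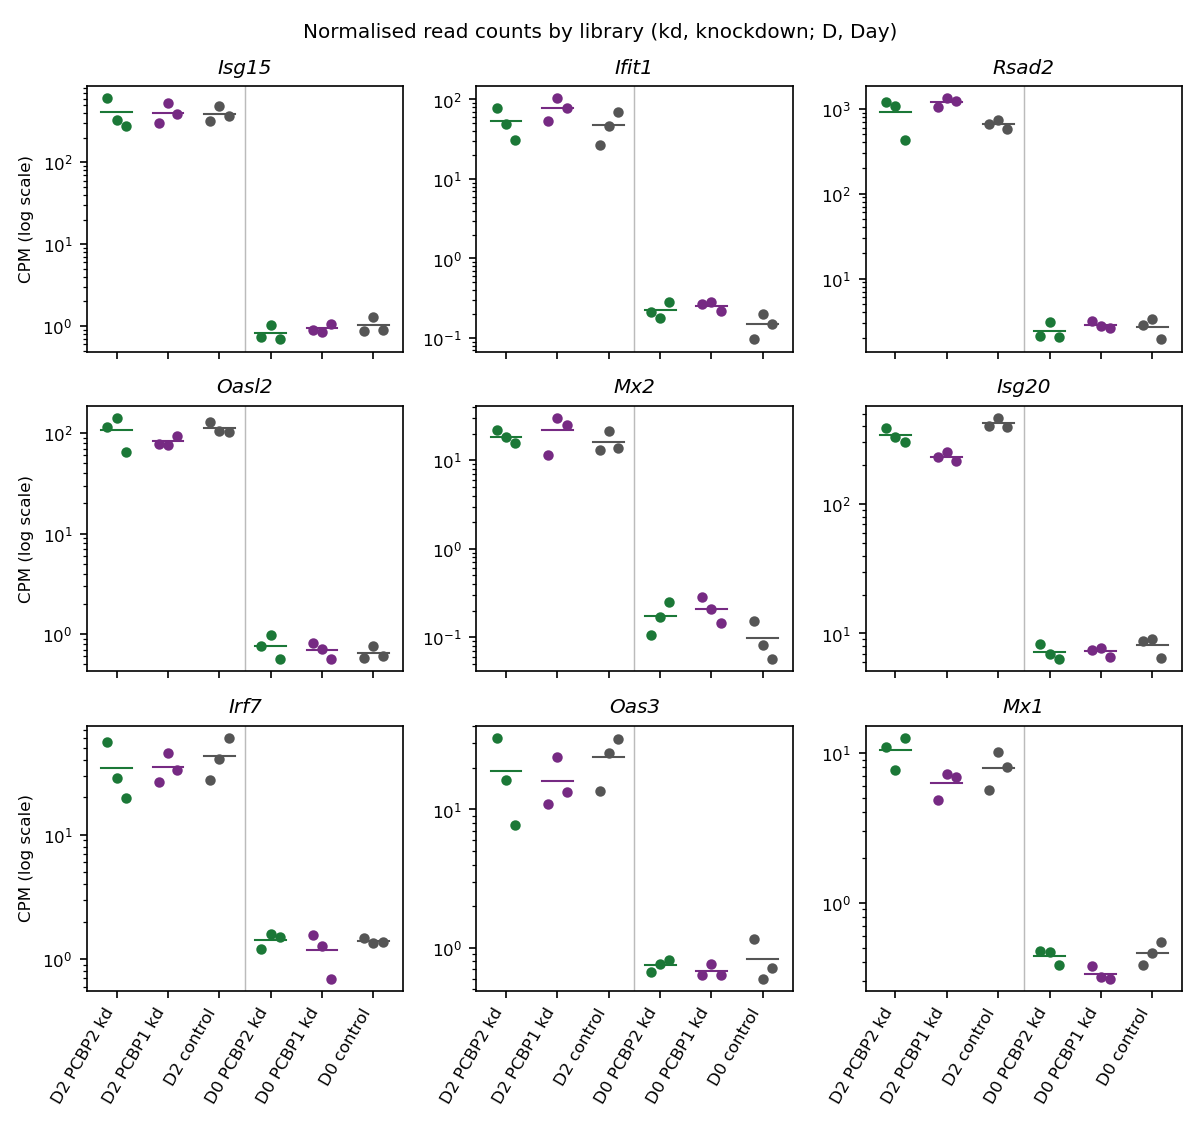
Normalised read counts (CPM, log axis) of the 9 members that rose by over 4 log2 units in the controls, 1 point per library and a line at each group mean, for Day 2 (left of the grey line) and Day 0. No Day 2 library of any condition overlaps a Day 0 library for any of the 9 genes, which were chosen by their change between the days. Over all genes, 83.2% did not overlap between the days in the controls.

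Promoter sequences of the most changed members are shown because interferon-stimulated genes are usually recognised by 2 kinds of element, the interferon-stimulated response element (ISRE) bound by STAT2 with IRF9 and by other IRFs, and the gamma-activated site (GAS) bound by STAT dimers. The windows run from 250 bases before to 50 bases after a gene's start (RefSeq, GRCm38.p6), 5′ to 3′ on the gene's strand. Capitals mark matches to an ISRE-type motif (GAAANNGAAA or GAAANNNGAAA, with TTTCNNTTTC and TTTCNNNTTTC on the other strand) and, in the Isg20 and Eif2ak2 windows, to the GAS core TTCNNNGAA, which reads the same on both strands.
Isg15 (chr4:156200769-156201068, minus strand): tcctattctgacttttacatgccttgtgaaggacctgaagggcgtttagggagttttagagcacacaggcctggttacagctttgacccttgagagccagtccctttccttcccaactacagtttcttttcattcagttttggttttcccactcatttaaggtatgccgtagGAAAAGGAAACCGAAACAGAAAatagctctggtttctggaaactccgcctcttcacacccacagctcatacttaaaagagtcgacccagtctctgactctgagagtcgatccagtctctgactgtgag
Rsad2 (chr12:26456403-26456702, minus strand): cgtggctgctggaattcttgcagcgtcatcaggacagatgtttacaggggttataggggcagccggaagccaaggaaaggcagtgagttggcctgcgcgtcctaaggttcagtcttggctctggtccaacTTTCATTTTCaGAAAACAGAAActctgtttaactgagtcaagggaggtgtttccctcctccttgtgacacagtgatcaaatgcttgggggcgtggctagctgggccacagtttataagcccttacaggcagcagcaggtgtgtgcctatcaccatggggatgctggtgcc
Ifit1 (chr19:34640639-34640938, plus strand): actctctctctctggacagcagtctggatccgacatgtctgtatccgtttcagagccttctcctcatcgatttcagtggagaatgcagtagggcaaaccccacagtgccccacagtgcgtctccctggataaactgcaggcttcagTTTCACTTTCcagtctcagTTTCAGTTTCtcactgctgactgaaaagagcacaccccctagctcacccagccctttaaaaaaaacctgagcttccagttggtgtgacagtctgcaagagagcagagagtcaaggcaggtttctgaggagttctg
Isg20 (chr7:78913174-78913473, plus strand): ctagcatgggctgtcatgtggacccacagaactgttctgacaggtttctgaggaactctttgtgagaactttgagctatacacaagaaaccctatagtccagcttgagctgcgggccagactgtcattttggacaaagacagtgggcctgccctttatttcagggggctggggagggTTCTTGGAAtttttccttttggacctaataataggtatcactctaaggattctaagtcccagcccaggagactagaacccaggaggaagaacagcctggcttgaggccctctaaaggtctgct
Eif2ak2 (chr17:78882523-78882822, minus strand): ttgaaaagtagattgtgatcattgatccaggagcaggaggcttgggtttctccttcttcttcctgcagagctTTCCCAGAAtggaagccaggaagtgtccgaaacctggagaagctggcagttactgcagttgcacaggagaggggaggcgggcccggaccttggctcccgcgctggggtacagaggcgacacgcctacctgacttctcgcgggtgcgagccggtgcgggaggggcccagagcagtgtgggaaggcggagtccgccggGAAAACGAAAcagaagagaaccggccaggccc
Dtx3l (chr16:35938978-35939277, minus strand): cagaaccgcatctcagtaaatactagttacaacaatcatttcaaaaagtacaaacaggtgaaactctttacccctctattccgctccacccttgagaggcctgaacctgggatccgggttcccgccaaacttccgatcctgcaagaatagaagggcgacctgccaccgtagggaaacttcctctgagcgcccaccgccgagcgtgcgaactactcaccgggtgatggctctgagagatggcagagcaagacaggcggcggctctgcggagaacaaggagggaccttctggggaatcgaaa

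Isg15 held 3 overlapping ISRE-type matches from 78 bases before the start, Rsad2 held 2 and Ifit1 held 2. The first of 3 Isg20 windows held a GAS core and no ISRE-type match, and its other windows held neither motif. The Eif2ak2 window held a GAS core and 1 ISRE-type match after the start, and the Dtx3l window held neither. Across the set, 33 of the 39 members were in the promoter table, which has no entry for Oas2, Mx1, Mx2, Usp18, Zbp1 and Parp9. An ISRE-type match stood in 15 of the 33 (45.5%), against 6.90% of the 27025 genes in the table, and a GAS core in 12 (36.4%), against 9.55%. The genes were listed as interferon-responsive, so that a high share is a property of the list. Of the 7 matched members over 4 log2 units, 4 had an ISRE-type match (Isg15, Ifit1, Rsad2 and Oas3), as did 11 of the other 26 members (42.3%), and Oasl2, Isg20 and Irf7 had none in these windows.

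Ranked per length in TPM, Salmon's transcript abundances, which sum to the same total in each library, the set's leading members differed between the days. At Day 2 they were Isg15 (409.7 TPM over 9 libraries), Isg20 (240.4), Rsad2 (161), Oasl2 (37.7) and Irf9 (29.0). At Day 0 they were Ifi35 (48.1 TPM), Trim25 (33.0), Ifitm3 (28.5), Bst2 (25.3) and Adar (22.4). The range of Isg15 at Day 2, 279 to 604 TPM, overlapped that of Isg20, 178 to 298 TPM, and that of Isg20 overlapped the range of Rsad2, 76.5 to 245 TPM. The order of Isg20 and Rsad2 differed by condition, with 262.3 and 160.3 TPM in PCBP2 knockdown, 192.4 and 223.9 TPM in PCBP1 knockdown, and 266.5 and 99.5 TPM in the controls. The range of Oasl2, 26.3 to 59.9 TPM, lay below that of Rsad2 and overlapped that of Irf9, 21.0 to 40.3 TPM. At Day 0 the range of Ifi35, 44.5 to 54.0 TPM, lay above the others. The ranges of Trim25 (30.9 to 35.2 TPM), Ifitm3 (25.9 to 33.3 TPM) and Bst2 (20.4 to 33.9 TPM) overlapped, and that of Adar (19.1 to 24.2 TPM) overlapped that of Bst2.

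The members that fell most in the controls included transcription factors of the pathway. Psmb8, an immunoproteasome subunit gene, had 0.762, 0.968 and 0.815 CPM in the Day 2 controls, against 3.46, 3.40 and 3.79 CPM in the Day 0 controls (log2 -2.06, SE 0.22, edgeR adjusted p = 2.15e-08). Irf8 and Irf5, factors of myeloid cells, fell by 1.28 and 1.18. Exons of Irf5 overlap those of Tnpo3 on the opposite strand, and Tnpo3 averaged 38.8 CPM in the Day 2 controls and 130.0 CPM in the Day 0 controls, and the part of its reads was not tested. Irf3, the factor that MAVS signalling activates, had 6.90, 3.83 and 5.12 CPM in the Day 2 controls, against 9.49, 10.9 and 11.8 CPM in the Day 0 controls (log2 -1.02, SE 0.30). Trim25, a ubiquitin ligase of RIG-I signalling, fell by 1.01 (SE 0.14) and Stat2, whose protein acts with IRF9 on interferon-stimulated genes, by 0.93 (SE 0.23). With library totals these 6 genes fell by 2.58 (Stat2) to 3.68 (Psmb8). The sensing axis was thus split in direction under both scalings. Mavs (2.48), Irf9 (2.56) and Irf7 (4.94) rose, and Irf3, Stat2 and Eif2ak2 (-0.67) fell. Exons of Irf7 overlap those of Phrf1 on the opposite strand (43.0 CPM in the Day 2 controls and 78.8 CPM in the Day 0 controls), and those of Irf9 overlap Rnf31 on the same strand (51.9 CPM in the Day 2 controls and 16.1 CPM in the Day 0 controls), and the part of these genes' reads was not tested. Ifih1, which codes for MDA5, fell by 0.46, and Ddx58, which codes for RIG-I, rose by 1.77 with TMM but had a value of 0.13 with library totals. Adar, the RNA-editing enzyme gene that marks self RNA, rose by 0.39 with TMM and fell by 1.25 with library totals.

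Mavs also differed between the days in the transcripts assigned to it. The coding transcript Mavs-202 took 34.3%, 49.5% and 35.4% of the gene's estimated reads in the Day 2 controls, against 11.6%, 18.8% and 10.2% in the Day 0 controls. Over all conditions its share was 26.8% to 49.5% at Day 2 and 5.77% to 18.8% at Day 0, with no overlap. Within Day 2 it was 31.0%, 32.6% and 26.8% with PCBP2 hairpins 1, 3 and 4 and 28.4%, 31.0% and 29.7% with PCBP1 hairpins, below the 3 controls in every knockdown library, while at Day 0 the groups overlapped. No test of these shares was run. The shares are Salmon's split of reads among overlapping transcripts, for which no error was given.

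The 21 interferon ligand genes summed to 0 to 4 estimated reads in any library, at most 0.191 CPM, and none passed the filter. Interferon protein was not measured. Over all genes tested in the controls, 40.5% rose and 42.4% fell, and the counts of the lists below were not tested against these shares. Of the 12 receptor and JAK-STAT genes, 8 rose and 4 fell in the controls at Day 2. The type I receptor genes Ifnar2 (4.38, SE 0.11) and Ifnar1 (3.73, SE 0.12) and the type II receptor gene Ifngr2 (3.65) were among those that rose. Of 38 other interferon-stimulated genes tested, 22 rose and 6 fell, with a median of 1.21, among them the GTPase genes Irgm2 (7.90) and Igtp (6.45) and the ISG15-conjugating enzyme gene Ube2l6 (6.74). Of 28 other sensors and adaptors, 7 rose and 11 fell, with a median of -0.273. Zc3hav1, which codes for an antiviral zinc-finger protein, rose by 4.32 and Ticam1, the TLR3 adaptor gene, by 2.94. Of 12 antigen presentation genes, 4 rose and 7 fell. The chaperone gene Calr rose by 2.62 and the immunoproteasome gene Psmb10 fell by 3.30.

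Markers of other cell types that make or answer interferon were measured beside the set. The 12 macrophage markers summed to 13.0 to 13.7 CPM in the Day 2 controls and 29.7 to 33.3 CPM in the Day 0 controls. Cd5l was at 0 in the Day 2 controls. The 7 plasmacytoid dendritic cell markers summed to 22.9 to 28.7 CPM in the Day 2 controls and 133 to 143 CPM in the Day 0 controls. Ly6d was at 0 in the controls of both days, and Klk1 in those of Day 2. The 9 granulocyte markers summed to 895 to 1290 CPM in the Day 2 controls and 953 to 1080 CPM in the Day 0 controls. The 10 lymphoid markers were higher at Day 2, at 9.83 to 11.5 CPM in the Day 2 controls against 5.76 to 6.51 CPM in the Day 0 controls, with Rag1 and Cd3e at 0 in the Day 2 controls. Where 42.4% of all genes fell and 40.5% rose, 8 of 9 macrophage markers tested fell and 1 rose. Of 5 plasmacytoid dendritic cell markers tested 2 rose and 2 fell, with a median log2 fold change of 0.512. The summed levels of both lists were lower at Day 2, where Isg15 and Rsad2 were high, and their part in the members' changes was not tested.

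In the knockdowns the change between the days was of the same order. With PCBP2 knockdown 23 members rose and 8 fell (41% and 42.2% of all genes, 83.1% in all), with a median of 0.962. With PCBP1 knockdown 25 rose and 7 fell (40.3% and 41.7% of all genes, 82% in all), with a median of 1.25. With library totals the splits were 15 higher and 17 lower with PCBP2 and 16 and 16 with PCBP1. Whether a knockdown altered the change was tested directly, as the difference of the knockdown effect between Day 2 and Day 0. No member was called for PCBP2 (0% of all genes) or for PCBP1 (0.389% of all genes) by edgeR. An unadjusted p under 0.05 was reached by 2 of 37 members for PCBP2 (9.11% of all genes) and 5 for PCBP1 (13.3% of all genes). DESeq2 called 0 members for PCBP2 (90 of 17500 genes) and 2 for PCBP1 (598 genes). The PCBP1 values with the smallest p were -0.70 for Isg20 (SE 0.18, edgeR adjusted p = 0.0963) and 0.66 for Eif2ak2 (SE 0.18, edgeR adjusted p = 0.0982).

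At Day 0 neither knockdown changed a member past the threshold. With PCBP2 knockdown 0 of 36 members were called by edgeR, where 0.038% of all genes were, 3 members had an unadjusted p under 0.05 (8.81% of all genes) and DESeq2 called none (89 of 15782 genes). With PCBP1 knockdown 0 of 36 were called by edgeR, where 6.81% of all genes were, 6 had an unadjusted p under 0.05 (21.7% of all genes) and DESeq2 called Irf2 (1665 genes in all). The direct comparison of PCBP2 with PCBP1 knockdown at Day 0 called 0 of 36 (edgeR, 1.65% of all genes), with 1 unadjusted p under 0.05 (14.3% of all genes) and none by DESeq2 (642 genes in all). The members' medians were -0.073 with PCBP2 and 0.00422 with PCBP1, against -0.00502 and -0.0019 over all genes.

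The Day 0 values with the smallest p were small. Bst2, which codes for tetherin, had 5.89, 5.62 and 7.26 CPM with PCBP2 hairpins 1, 3 and 4 and 6.39, 6.33 and 6.56 CPM with PCBP1 hairpins, against 7.94, 9.27 and 7.23 CPM in the controls. The log2 values were -0.40 with PCBP2 (SE 0.12, edgeR adjusted p = 0.341) and -0.34 with PCBP1 (SE 0.12, edgeR adjusted p = 0.118). All 3 PCBP1 libraries lay below the controls, and 1 PCBP2 library lay among them. Irf2, an antagonist of IRF1, had 0.19 (SE 0.06, edgeR adjusted p = 0.412) with PCBP2 and 0.20 (SE 0.06, edgeR adjusted p = 0.0785) with PCBP1. The remaining values by smallest p were Xaf1 with PCBP2 (-0.62, SE 0.28) and Dtx3l with PCBP1 (0.26, SE 0.09). Along the sensing axis, the PCBP2 values ran from -0.11 (Irf3) to 0.08 (Ifih1) and the PCBP1 values from -0.25 (Irf3) to 0.24 (Ifih1). Mavs itself, whose protein PCBPs are known to bind, had 20.4, 19.8 and 20.0 CPM with PCBP2 hairpins, 21.3, 21.6 and 21.0 CPM with PCBP1 hairpins, and 21.0, 20.2 and 19.9 CPM in the controls (log2 -0.04 with PCBP2 and 0.07 with PCBP1, SE 0.06 each). Among the neighbouring pathway genes at Day 0, PCBP1 knockdown lowered Tyk2, the JAK-family kinase of the type I receptor, by 0.61 (SE 0.09, edgeR adjusted p = 0.00248), and Ticam1, Helz2, Ifitm1 and H2-D1 also fell while Traf6 and Herc6 rose, by at most 0.55 in size. With PCBP1, 1 of 11 receptor and JAK-STAT genes tested was lower, and of 28 other sensors and adaptors 1 was higher and 1 lower. Of 36 other interferon-stimulated genes 1 was higher and 2 lower, and of 12 antigen presentation genes 1 was lower. Over all genes, 6.81% were called with PCBP1, and the lists were not tested against this share. No gene of these lists was called with PCBP2, where 0.038% of all genes were.

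At Day 2 the PCBP1 knockdown lowered 1 member, Isg20, and raised 2, Dtx3l and Eif2ak2. They are 3 of 37 tested, where 5.94% of all genes were called, 1.83% higher and 4.11% lower (edgeR). The members' count of adjusted calls in this fit is near this background. An unadjusted p under 0.05 was reached by 12 of 37 members (32.4%), against 21.7% of all genes. This excess was not tested. The members' median was 0.111, against 0.0297 over all genes, and the groups did not overlap for 10 of 37 members, as for 23.9% of all genes. The number of members called depended on the model: DESeq2 called 5 (8.89% of all genes), the fit on all 18 libraries 10 (13.1%) and scaling to library totals 11 (10 higher and 1 lower, with 9.25% of all genes called), while leaving out single libraries gave 1 to 3 (1 without SCR-2 or without hairpin 4).

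**Figure D3:**
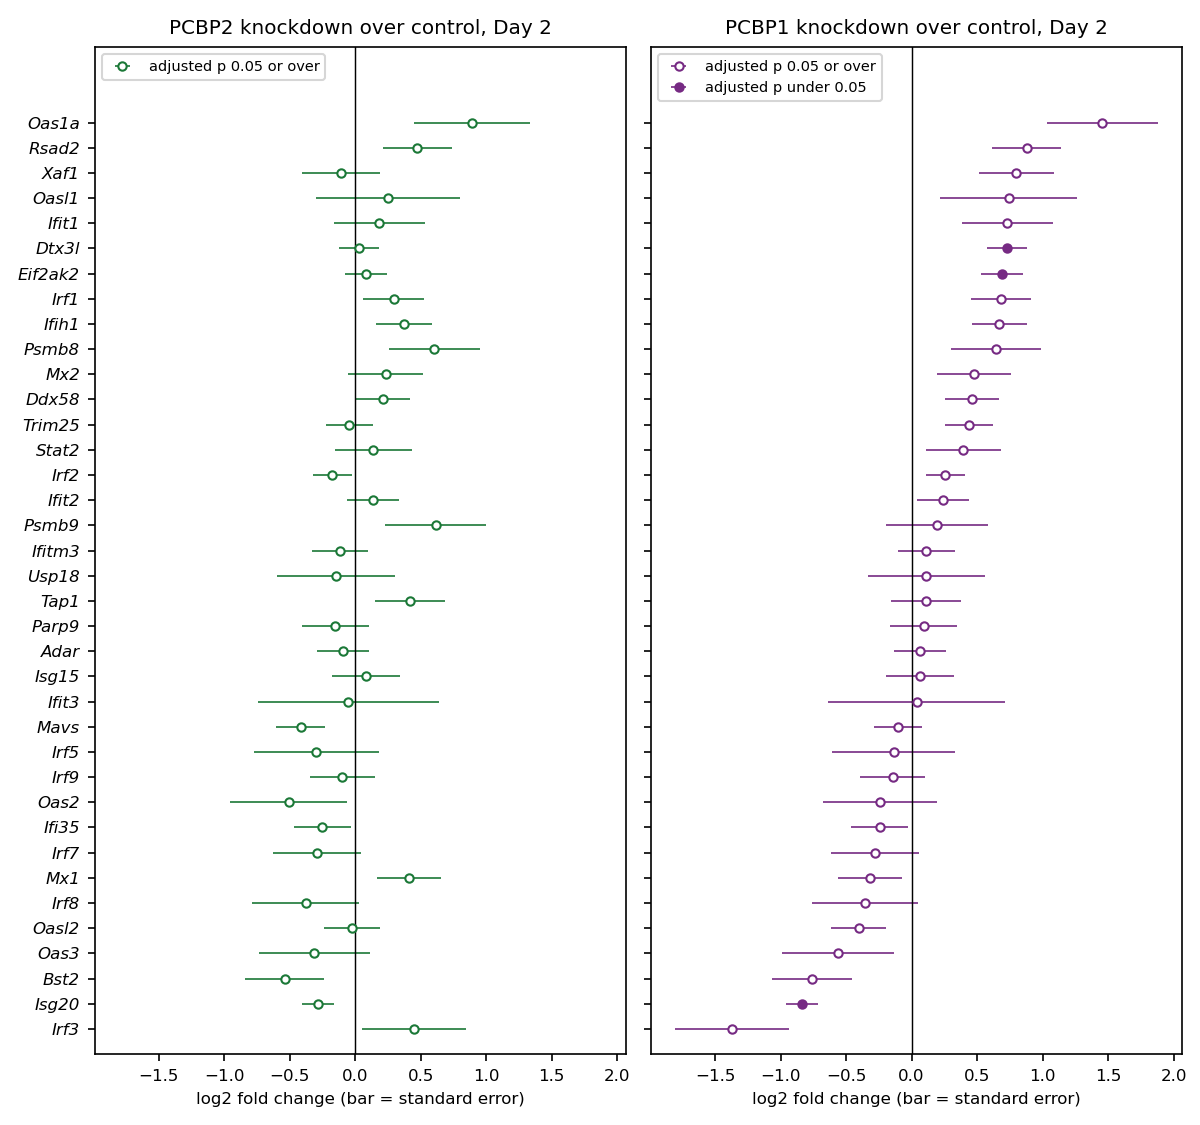
Fitted log2 fold change over control at Day 2 for 37 members, PCBP2 knockdown at left and PCBP1 knockdown at right, with standard errors, and filled points for an adjusted p under 0.05. Only Isg20 (-0.84), Eif2ak2 (0.69) and Dtx3l (0.73) are filled, all with PCBP1, and with library totals the median of all genes shifts by 0.175 (PCBP2) and 0.218 (PCBP1).

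Isg20 was at 229.3, 254.0 and 215.7 CPM with PCBP1 hairpins 1, 3 and 4, against 403.5, 463.3 and 394.4 CPM in the controls. The groups did not overlap, and the highest knockdown library lay well below the lowest control. Isg20 fell by 0.84 log2 units (SE 0.12, edgeR adjusted p = 0.00254) and was called lower in every alternative tried. The 3 hairpins left 54.5%, 60.4% and 51.3% of the control mean. At Day 0 they had left 92.3%, 95.7% and 81.8%, with groups that overlapped.

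Dtx3l (ENSMUSG00000049502, chromosome 16, 35926511 to 35939151, minus strand) codes for a ubiquitin ligase that works in a complex with PARP9. It was at 29.1, 30.9 and 29.5 CPM with PCBP1 hairpins, against 18.8, 17.4 and 18.2 CPM in the controls, with no overlap. It rose by 0.73 (SE 0.15, edgeR adjusted p = 0.0138), a value of 0.70 to 0.75 with a library left out, and the call was lost without SCR-2 (adjusted p = 0.0524 by edgeR) and without hairpin 4 (0.0563). Its exons overlap those of Parp9 on the opposite strand, and whether the counting used strand is not stated, so the reads of these genes cannot be surely told apart. Parp9 had a value of 0.09 in the same comparison and was not called.

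Eif2ak2 (ENSMUSG00000024079, chromosome 17, 78852564 to 78882573, minus strand) codes for PKR, a kinase that binds double-stranded RNA and halts translation. It was at 23.7, 26.3 and 26.2 CPM with PCBP1 hairpins, against 14.6, 16.7 and 16.4 CPM in the controls. It rose by 0.69 (SE 0.16, edgeR adjusted p = 0.0234), with every knockdown library above every control. The value was 0.63 to 0.73 with a library left out and 0.56 with the GC trend removed, where the call was lost (adjusted p = 0.0822 by edgeR). The call was also lost without any 1 of SCR-1, SCR-2 and the 3 hairpins (adjusted p = 0.0524 to 0.0869), and it was kept without LUC-1 (0.0384).

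Other members had values above 0 with PCBP1 at Day 2 that did not pass. Rsad2 was at 1043, 1334 and 1236 CPM with PCBP1 hairpins, against 666, 737 and 579 CPM in the controls. The groups did not overlap, and the value was 0.88 (SE 0.26, edgeR adjusted p = 0.0669), called in the fits by DESeq2 (adjusted p = 0.0147) and on all 18 libraries (0.0218). Ifih1 had 12.9, 12.02 and 9.42 CPM with PCBP1, against 7.77, 5.57 and 8.50 CPM in the controls (0.67, SE 0.21, edgeR adjusted p = 0.0802). Oas1a, with 0.724, 1.19 and 1.21 CPM with PCBP1 against 0.406, 0.484 and 0.233 CPM in the controls, had 1.456 (SE 0.42, edgeR adjusted p = 0.0586). Its reads may be shared with near-identical copies such as Oas1g. Along the rest of the sensing axis the values were 0.46 for Ddx58, 0.40 for Stat2, 0.06 for Adar, -0.10 for Mavs, -0.15 for Irf9 and -0.28 for Irf7, none called. Isg15 had 303.0, 525.2 and 387.4 CPM with PCBP1, against 316.6, 489.0 and 367.2 CPM in the controls, which overlap throughout.

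Of 12 receptor and JAK-STAT genes, 3 fell with PCBP1 knockdown at Day 2, none rose and 9 were not called, where 4.11% of all genes were lower and 1.83% higher. Ifnar1 was at 226, 249.6 and 207 CPM with PCBP1 hairpins, against 355, 348 and 483 CPM in the controls (-0.79, SE 0.14, edgeR adjusted p = 0.00758). Ifnar2 was at 363, 332.5 and 394 CPM with PCBP1 hairpins, against 531, 577 and 678 CPM in the controls (-0.70, SE 0.12, edgeR adjusted p = 0.00606). Il10rb, the shared receptor chain of type III interferon and interleukin-10, fell by 0.58 (SE 0.16). Both type I receptor genes were lower in all 3 hairpins than in all 3 controls. Of 36 other interferon-stimulated genes, 2 rose and 2 fell, with a median of 0.212. Gbp7, a guanylate-binding protein gene, was at 8.24, 11.4 and 8.52 CPM with PCBP1 hairpins, against 3.55, 4.55 and 3.03 CPM in the controls (1.34, SE 0.23, edgeR adjusted p = 0.00636). Cxcl10, a chemokine gene, was at 8.63, 10.6 and 19.0 CPM with PCBP1 hairpins, against 5.381, 6.003 and 2.793 CPM in the controls (1.44, SE 0.30, edgeR adjusted p = 0.0134). Irgm2 fell by 0.52 (SE 0.13). No other sensor or adaptor was called, and in antigen presentation Calr fell by 0.49 (SE 0.11).

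Some cell type markers were called in the same comparison, where 4.11% of all genes were lower and 1.83% higher. Of 10 erythroid markers, 5 fell with PCBP1 knockdown (Klf1 by 0.96, Hba-a1 by 0.78, Epor by 0.70, Slc4a1 by 0.51 and Hbb-bs by 0.39), and the list summed to 416000 to 440000 CPM with PCBP1, against 519000 to 700000 CPM in the controls. Of 4 lymphoid markers tested, only the progenitor marker Il7r was called, higher by 1.88 (SE 0.36). The 10 lymphoid markers summed to 16.3 to 22.3 CPM with PCBP1, against 9.83 to 11.5 CPM in the controls. Of 7 megakaryocyte markers, Gp9 fell by 0.75 (SE 0.17) and the others were not called. The part of these markers in the changes of Isg20, Dtx3l, Eif2ak2 and the 3 receptor genes was not tested. The 12 macrophage markers summed to 10.6 to 14.2 CPM with PCBP1 and 13.0 to 13.7 CPM in the controls, with C1qa at 0 with PCBP1.

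The PCBP2 knockdown changed no member past the threshold at Day 2 (0 of 37, edgeR, where 0.198% of all genes were called). An unadjusted p under 0.05 was reached by 2 members (13.4% of all genes), and DESeq2 called none (383 of 15129 genes). The smallest p values were those of Isg20, Mavs and Oas1a. Isg20 was at 384.2, 332.2 and 303.9 CPM with PCBP2 hairpins 1, 3 and 4, against 403.5, 463.3 and 394.4 CPM in the controls (-0.28, SE 0.12, edgeR adjusted p = 0.332). Mavs was at 107, 77.4 and 67.6 CPM with PCBP2 hairpins, against 119, 98.2 and 125 CPM in the controls (-0.42, SE 0.19, edgeR adjusted p = 0.348), and hairpin 1 lay among the controls. Oas1a had a value of 0.89 (SE 0.44, edgeR adjusted p = 0.407). Irf3 (0.45), Ifih1 (0.37), Ddx58 (0.21), Stat2 (0.14), Eif2ak2 (0.08), Adar (-0.09), Irf9 (-0.10) and Irf7 (-0.29) were not called either. The members' median was -0.0261, against 0.00506 over all genes. No gene of the receptor, sensor, interferon-stimulated or antigen presentation lists was called with PCBP2 at Day 2.

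Set directly against each other at Day 2, the knockdowns differed in 3 members of 37, 2 higher and 1 lower with PCBP2 than with PCBP1 (edgeR, where 2.65% of all genes were called, 1.41% higher and 1.24% lower). Isg20 was higher with PCBP2 by 0.55 (SE 0.12, edgeR adjusted p = 0.0317), at 384.2, 332.2 and 303.9 CPM with PCBP2 hairpins against 229.3, 254.0 and 215.7 CPM with PCBP1 hairpins. Dtx3l was lower by 0.70 (SE 0.15, edgeR adjusted p = 0.0288), at 22.5, 15.9 and 16.3 CPM with PCBP2 hairpins against 29.1, 30.9 and 29.5 CPM with PCBP1 hairpins. Irf3 was higher by 1.82 (SE 0.43, edgeR adjusted p = 0.0406), at 8.77, 4.89 and 7.70 CPM with PCBP2 hairpins, against 2.39, 3.23 and 0.474 CPM with PCBP1 hairpins. None of the 3, chosen by their call in this comparison, overlapped between the groups, and the share of all genes was not counted. Each call was lost without PCBP1 hairpin 1 or hairpin 4 and without PCBP2 hairpin 3 or hairpin 4, and those of Isg20 and Irf3 also without PCBP2 hairpin 1. The 6 fits that left out a library gave 0 to 3 called members, and library totals gave 2 higher and 2 lower.

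**Figure D4:**
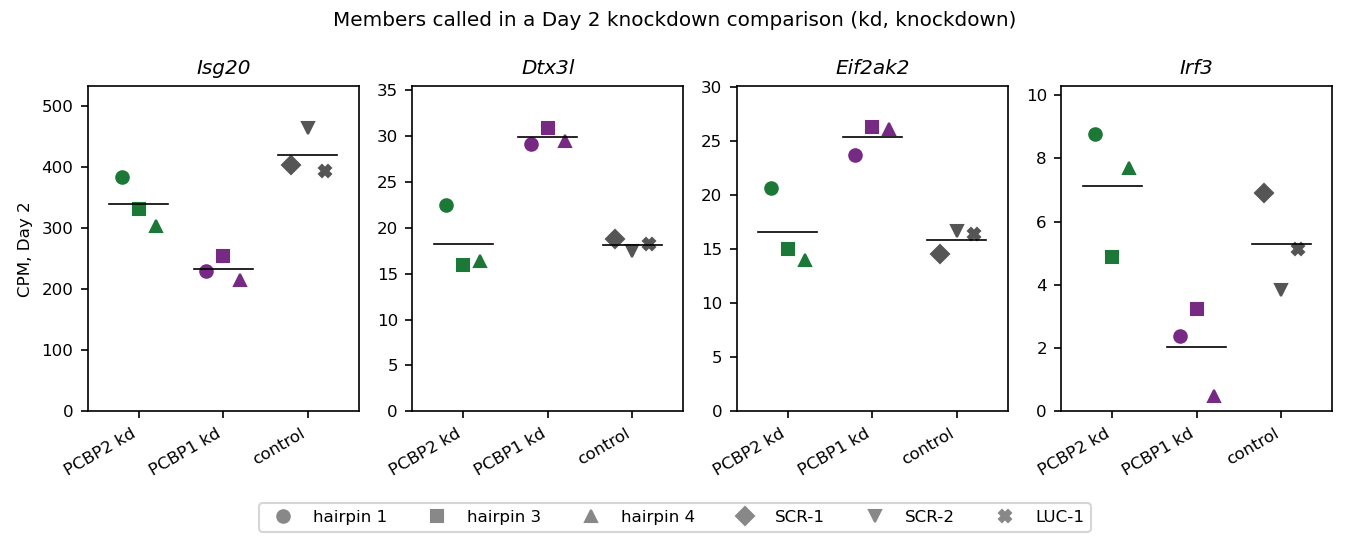
Normalised read counts (CPM, axis from 0) at Day 2 of the 4 members called in any knockdown comparison, 1 symbol per hairpin and a line at each group mean, with PCBP2 knockdown, PCBP1 knockdown and control from left to right. The PCBP1 hairpins lie below the controls for Isg20 and above them for Dtx3l and Eif2ak2, and PCBP1 hairpin 4 has the lowest Irf3 value, 0.474 CPM.

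Irf3 (ENSMUSG00000003184, chromosome 7, 44997648 to 45002848, plus strand) was called in the comparison of the knockdowns but not against control. Against the controls, at 6.90, 3.83 and 5.12 CPM, the PCBP1 value was -1.37 (SE 0.43, edgeR adjusted p = 0.0803) and was not called, although every PCBP1 library lay below every control. The value was called with all 18 libraries (edgeR adjusted p = 0.0139), with no filter on low counts (7.55e-06) and without hairpin 3 (0.0468). PCBP1 hairpin 4 left 8.96% of the control mean, and hairpins 1 and 3 left 45.3% and 61.2%. In the PCBP2 comparison the difference without PCBP1 hairpin 4 was 1.34 (edgeR adjusted p = 0.0766). A single coding transcript of Irf3 took 33.1% to 100% of the gene's estimated reads in the Day 2 controls, so that Salmon's assignment varied from library to library. The Irf3 exons also overlap those of Bcl2l12 on the opposite strand, which averaged 0.546 CPM in the Day 2 controls.

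At Day 2 the members' highest and lowest values in a group often came from the same library. This order was described after the data were seen and was not tested. With PCBP2 knockdown, hairpin 1 held the highest value of its group for 27 of 37 members, as for 32.3% of all genes, and hairpin 4 the lowest for 25 (35.9% of all genes). With PCBP1 knockdown, hairpin 3 was highest for 29 (33.5% of all genes) and hairpin 1 lowest for 25 (34.1%). Among the controls, LUC-1 was highest for 19 (36.7%) and SCR-1 lowest for 24 (29.8%). Hairpin 1 was thus highest for most members with PCBP2 and lowest for most with PCBP1, and the 2 hairpins of that number target different genes.

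Irf7, Usp18 and Oas3 are examples. Irf7 had 55.9, 28.6 and 19.6 CPM with PCBP2 hairpins 1, 3 and 4. It had 26.7, 45.5 and 33.5 CPM with PCBP1 hairpins, and 27.9, 40.7 and 60.5 CPM in SCR-1, SCR-2 and LUC-1. Usp18, which removes ISG15 from proteins and restrains interferon signalling, had 18.6, 7.94 and 5.46 CPM with PCBP2, 8.74, 19.6 and 10.0 CPM with PCBP1, and 5.64, 11.4 and 18.7 CPM in the controls. Oas3 had 33.0, 16.4 and 7.70 CPM with PCBP2, 10.9, 23.9 and 13.4 CPM with PCBP1, and 13.6, 25.8 and 32.2 CPM in the controls. For these 3 genes the spread within a group was wider than the distance between the group means. The summed erythroid markers were 516000, 427000 and 458000 CPM with PCBP2 hairpins 1, 3 and 4, 416000, 440000 and 434000 CPM with PCBP1 hairpins and 519000, 616000 and 700000 CPM in SCR-1, SCR-2 and LUC-1. The library with the highest sum was also the one highest for most members in each group, although the PCBP1 sums lay close together. For the lowest values the order matched with PCBP1 and in the controls but not with PCBP2. There hairpin 3 had the lowest sum, and hairpin 4 was lowest for 25 members. The part of the erythroid markers in this order was not tested. At Day 0 the largest such counts were 17 of 36 members highest with PCBP1 hairpin 3 (32.8% of all genes) and 24 lowest with PCBP1 hairpin 4 (27.0%).

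**Figure D5:**
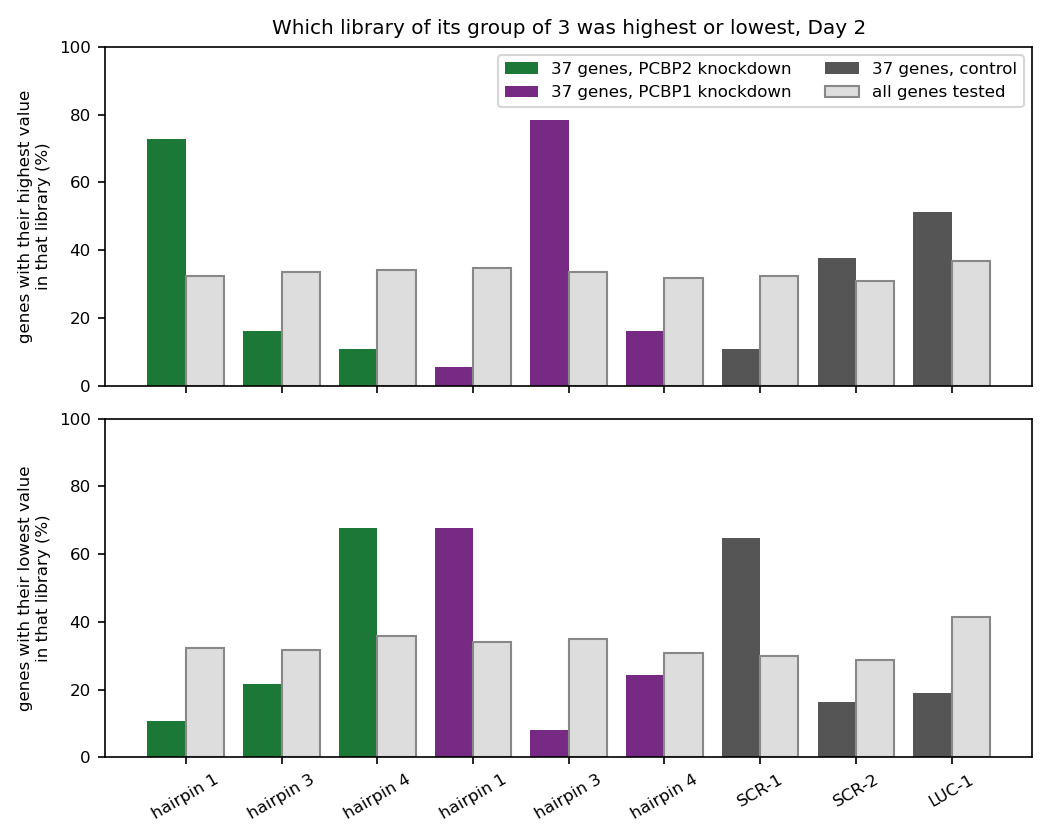
Share of the 37 members (coloured bars) and of all genes tested (grey bars) that had their highest (top) or lowest (bottom) value of the group in each Day 2 library, in percent. PCBP2 hairpin 1 and PCBP1 hairpin 3 hold the highest value of most members, against about 33% of all genes.

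Splicing of the members was read from the authors' deposited tables of local splicing variations, sets of junctions that leave or enter an exon, with the expected change in percent spliced in (PSI) and the probability that it reaches 20 percentage points. At a probability of at least 0.95, no variation of a member passed in the authors' deposited tables: 0 of 187 with PCBP2 and 0 of 191 with PCBP1 at Day 2, and 0 of 208 with PCBP2 and 0 of 211 with PCBP1 at Day 0. Over all genes the shares were 0.0718% with PCBP2 and 0.191% with PCBP1 at Day 2, and 0.0115% with PCBP2 and 0.0573% with PCBP1 at Day 0, which is less than 1 variation in a set of this size. At 0.90 the members' counts were also 0. The highest probability, 0.678 in the authors' deposited table, was for an Irf9 junction in the Day 2 PCBP1 knockdown (chromosome 14, 55604243 to 55604468, plus strand), with a PSI of 38.5% in the knockdown against 15.8% in the pooled controls. Irf9 exons overlap those of Rnf31 on the same strand. For Adar at Day 0, the authors' deposited table gave a probability of 0.320 and a PSI of 79.3% with PCBP1 against 60.5% in the controls. These are pooled values with no replicate error.

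Salmon's transcript shares were set beside these for Isg20. The retained-intron transcript Isg20-205 took 11.4%, 14.4% and 14.7% of the gene's estimated reads with PCBP2 hairpins 1, 3 and 4 and 7.11%, 8.06% and 10.8% with PCBP1 hairpins at Day 2, against 8.86%, 9.86% and 7.64% in the controls. The PCBP2 libraries lay above the others, and the PCBP1 libraries overlapped the controls. Coding transcript Isg20-202 took 2.55% to 3.44% with PCBP2 and 4.12% to 4.98% with PCBP1, against 1.53% to 2.89% in the controls. Another coding transcript of Isg20 took 10.7% to 11.1% with PCBP2 and 11.3% to 12.4% with PCBP1, against 13.5% to 15.0% in the controls. At Day 0 the share of Isg20-205 was 3.62% to 6.39% with PCBP2, against 3.25% to 5.18% in the controls. These transcripts were singled out after their values were seen, and the shares were not tested.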

How the data were processed

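RNA-seq of 18 libraries was analysed, 3 in each of 6 groups. The authors' deposited files give, per the file headers, an estimated count of reads and a TPM value per transcript, made by the authors with Salmon. FastQC 0.11.9, Trim Galore 1.46.0, STAR 2.5.3a, SAMtools 1.9 and Salmon 0.11.3 are named in the submitters' processing notes, with GRCm38 as genome. Whether counting used strand is not given in the sources used here. Local splicing variations were deposited by the authors in the form of estimated shares of use (PSI), their changes and the probability of a change, from libraries pooled by group, in mm10 coordinates per the file headers.

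Estimated counts were summed per gene (GENCODE M21) and rounded. Of 111706 transcripts, 110403 matched, and 0.275% to 0.579% of reads in a library had no gene and were left out. The depth of 27033440 to 54096339 reads gives genes under about 1 CPM few reads, and so wide errors. Comparisons within a day used the 9 libraries of that day, and changes between days used all 18, with TMM factors, filterByExpr and the quasi-likelihood test of edgeR 4.0.16 (R 4.3.3, limma 3.58.1), adjusted by Benjamini-Hochberg over all 15782 (Day 0), 15129 (Day 2) or 17500 genes tested, and called under 0.05. The fit was tested on simulated data with known changes. Of changes of 1 log2 unit, it recovered 74% for PCBP1 at Day 0 and 61% for PCBP1 at Day 2. It recovered 56% for the controls between days and 45% for the PCBP1 effect between days. False calls were 6.63%, 3.87%, 2.13% and 4.13% of calls in the same order. Changes of this size could therefore be missed. Alternatives were DESeq2 1.42.0, median-of-ratios factors, library totals, no filter, removal of the GC trend, other sets of libraries, hairpin blocks and each library left out. Promoters are from RefSeq (GRCm38.p6).

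The members, lists, tests and choice of fit were made with earlier results of these data known. Genes named with values were those called in a knockdown comparison, the 3 smallest p-values among the rest, the largest changes between the days (up to 6 each way, at an average log2 CPM of at least 0), a fixed set of sensing genes, the 5 highest per length on each day, and up to 3 per pathway list. The order of libraries, with Irf7, Usp18 and Oas3, the transcript shares and further values outside this rule were chosen after the data were seen.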

Additional observations from a re-analysis of the deposited data

How the results depend on the processing

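Median-of-ratios factors moved the median of all genes between the days by 0.113 in the controls, and library totals by far more, with the splits given above. With library totals, 6 members called higher between the days with TMM in the controls were called lower, as given above. The counts of called members that moved by over 1.5 times were those of the knockdowns. For PCBP1 against control at Day 2 (3 members), DESeq2 called 5, library totals 11, no filter 9 and all 18 libraries 10, and leaving out single libraries gave 1 to 3. For PCBP2 against PCBP1 at Day 2 (3), DESeq2 called 5, no filter 8 and all 18 libraries 8, and leave-outs gave 0 to 3. For PCBP1 at Day 0 (0), DESeq2 called 1. For PCBP2 at Day 2 (0), no filter called 1. For the PCBP1 effect between days (0), DESeq2 called 2, library totals 2 and no filter 4.

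Genes called over the whole table moved too: for PCBP1 at Day 2, 899 became 495 with the GC trend removed, 1400 with library totals, 1614 with no filter, 2296 with 18 libraries and 244 to 1017 with a library left out. For PCBP1 at Day 0, 1074 became 351 with the GC trend removed, 1665 with DESeq2, 1677 with no filter, 154 with 18 libraries and 231 to 1158 with a library left out. For PCBP2 at Day 2, 30 became 2 with the GC trend removed, 49 with median-of-ratios factors, 383 with DESeq2, 600 with no filter, 822 with 18 libraries and 1 to 170 with a library left out. For PCBP2 against PCBP1 at Day 2, 401 became 1011, 1235 and 2115, and at Day 0, 260 became 642, 841 and 49 with DESeq2, no filter and 18 libraries, and leave-outs gave 57 to 612 and 50 to 508. For PCBP2 at Day 0, 6 became 89 with DESeq2, 296 with no filter and 4 to 25 with a library left out. For the PCBP1 effect between days, 68 became 598 with DESeq2, 328 with library totals, 505 with no filter, 20 with 12 libraries and 13 to 205 with a library left out. For the PCBP2 effect, 0 became 90 with DESeq2, 169 with no filter and up to 3 with a library left out. The cause was not tested.

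For a knockdown against control within a day, no paired analysis was possible because these libraries share no hairpin. Libraries of the same hairpin on both days deviated from their group means with correlations of -0.0092 to 0.0418, and the same-numbered PCBP1 and PCBP2 hairpins with -0.0451 to 0.0704, so that they share only a number or a hairpin. With the hairpin as replicate block, the PCBP1 effect between days called 1 member, Isg20 (log2 -0.71, edgeR adjusted p = 0.0363; with the GC trend also removed -0.70 and 0.0326). With the number as block, PCBP2 against PCBP1 at Day 2 called 4, Irf3, Isg20, Xaf1 and Dtx3l, and 738 genes. Of 783 alternative values of the genes named by size or p-value, 720 counted as unchanged, 22 lost a call and 15 gained one. Unchanged means that a called value kept call and direction, or that an uncalled value stayed uncalled within its standard error. Uncalled values near 0 could change sign within that limit, such as Mavs with PCBP1 at Day 2 (-0.10, and 0.02 without hairpin 4). The other 26 were uncalled values that moved by at least the standard error.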
